A study of Mus musculus with 20 samples.

Results

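Ctgf, Cyr61, Ankrd1, Amotl1, Amotl2, Ajuba, Lats2 and Axl are target genes of the transcription co-activators YAP and TAZ, and their 8 rows were taken by symbol from the deposited table of 38784 symbols, with all 8 found. YAP and TAZ are held in the cytoplasm when the LATS kinases of the Hippo pathway phosphorylate them. Otherwise they enter the nucleus and bind TEAD factors at promoters and enhancers. In liver this pathway is known for limiting organ size, and its secreted targets of the CCN family, Ctgf and Cyr61, are known for roles in fibrosis and in the response to injury. Part of the target list feeds back on the pathway, since Lats2 is a Hippo kinase and the angiomotins and Ajuba bind its components. YAP activity itself was not measured here, and every value below is an RNA level or a footprint level.

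Livers came from 10 FVB/N mice of 6 to 8 weeks, injected through the tail vein with lipid nanoparticles that carried siRNA; the dose was 0.5 mg/kg with 1 injection per 5 days. Control mice received a scrambled luciferase siRNA, and the others an siRNA to Eif3m, the gene of subunit m of the translation initiation factor eIF3. There were 3 mice per siRNA at day 9 and 2 per siRNA at day 13, each with 1 RNA library and 1 library of ribosome footprints, the mRNA fragments that ribosomes protect. Nothing in the labels limits the siRNA to hepatocytes, and the RNA is of ground whole liver, so fewer cells of a type and less RNA per cell cannot be told apart.

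The siRNA labels held in every library. Eif3m RNA was 73.8 to 75.9 CPM (counts scaled to a common library size) in the day 9 controls and 7.26 to 8.27 CPM under Eif3m siRNA, and its footprints at day 13 were 76.6 and 78.8 CPM against 5.73 and 2.46 CPM. Total counts per library ran from 4.96 M to 39.02 M for RNA and from 1.64 M to 7.69 M for footprints, and the shallowest library of each assay was from a day 13 Eif3m liver. The 12 hepatocyte markers (albumin, apolipoproteins and others) summed to between 125847 and 330461 CPM in every library, as the liver label requires. RNA libraries were made with another kit at day 13 (NeoPrep) than at day 9 (KAPA mRNA capture), so RNA kit and day cannot be told apart, while all footprint libraries were made with ART-seq. The animals of each day carry a label series of their own, so animal set and day cannot be told apart in either assay.

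TEAD factors bind DNA around the letters GGAATG, which read CATTCC on the other strand, and these letters are shown first because they are what the members may share beyond their listing as targets. RefSeq promoters (build GRCm38.p6) were matched for 7 of the 8 genes, Ctgf (RefSeq symbol Ccn2, chr10:24595442-24598683) being the one unmatched. In the 250 bases before the start site, 5 of the 7 held the motif on either strand, as did 12.6% of 32851 RefSeq promoters. Cyr61 (RefSeq Ccn1) carried it 98 to 103 bases before its start, within this window at chr3:145649986-145650235, minus strand, motif in capitals.
Cyr61 promoter: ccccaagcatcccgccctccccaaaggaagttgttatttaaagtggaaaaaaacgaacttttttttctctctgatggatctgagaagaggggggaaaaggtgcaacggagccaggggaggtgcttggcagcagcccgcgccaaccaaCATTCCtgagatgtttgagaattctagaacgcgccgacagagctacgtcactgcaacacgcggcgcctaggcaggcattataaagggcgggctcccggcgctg
The other matches are printed with 9 bases on each side, read 5′ to 3′ on the gene's strand with the motif in capitals.
Ankrd1, chr19:36120040-36120063, minus strand: actgccaaaGGAATGaccctctca
Ankrd1, chr19:36119953-36119976, minus strand: actaagtctGGAATGaaaattcac
Amotl2, chr9:102717730-102717753, plus strand: aaactctcaCATTCCtggcatagc
Ajuba, chr14:54577833-54577856, minus strand: tgatggataCATTCCacagtgccc
Ajuba, chr14:54577811-54577834, minus strand: ccctccgcgCATTCCaactgtaaa
Axl, chr7:25788952-25788975, minus strand: aattctacaGGAATGtttaccaga
Ankrd1 and Ajuba each had 2 matches. Amotl1 and Lats2 (with 2 listed start sites) had none in their windows. The AP-1 letters TGANTCA (6.75% of promoters), the SRF CArG box (1.47%) and the letters TGATGNAA of the ATF4-CEBP composite element (3.45%) were in none of the members' windows on either strand. These matches describe the letters and are not binding sites seen in these data.

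Ctgf, which encodes connective tissue growth factor, a secreted matrix protein, rose at day 9 in RNA and in footprints and did not do so at day 13. Its RNA was 1.05, 1.46 and 1.85 CPM in the 3 day 9 controls and 3.87, 4.54 and 3.16 CPM in the 3 day 9 Eif3m livers. Every Eif3m liver was above every control. The log2 change was 1.40 (SE 0.25, 2.64-fold, edgeR adjusted p = 0.0069), and the estimate was higher in only 1.88% of the 16444 genes tested. Footprints on Ctgf were 3.76, 4.27 and 5.53 CPM in the day 9 controls and 11.6, 18.01 and 16.5 CPM under Eif3m siRNA. The groups were again apart, with the lowest Eif3m liver above the highest control. The log2 change was 1.77 (SE 0.22, edgeR adjusted p = 2.6e-05), and 1.12% of 12213 genes had a larger one. Both calls held with each library left out in turn, with adjusted p up to 0.043 in RNA and up to 0.00038 in footprints.

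At day 13, Ctgf was no higher under Eif3m siRNA in either assay. Its RNA was 4.52 and 4.401 CPM in the controls and 3.88 and 2.63 CPM in the Eif3m livers, a log2 change of -0.38 (SE 0.32, edgeR adjusted p = 0.45). Its footprints were 8.70 and 11.7 CPM with control siRNA and 5.73 and 7.52 CPM with Eif3m siRNA, a log2 change of -0.55 (SE 0.35, edgeR adjusted p = 0.35). Both Eif3m livers were below both controls in each assay, and neither change passed the test. The 95% interval of the footprint change ran from -1.27 to 0.17, below the whole of the day 9 interval of 1.31 to 2.23. The footprint values at day 13 rest on few reads, 15 and 22 in the controls and 10 and 55 in the Eif3m livers.

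The siRNA effect on Ctgf footprints differed between the days. The day 13 change minus the day 9 change was -2.32 on the log2 scale (SE 0.42, edgeR adjusted p = 0.01), and Ctgf was the 1 member of the 7 tested that passed, where 0.598% of all genes passed in that direction and 0.819% in either. The call was lost without control replicate 2 of day 13 (-2.08, adjusted p = 0.14) and without Eif3m replicate 2 of day 13 (-2.60, adjusted p = 0.14). In RNA the same difference was -1.78 (SE 0.40, edgeR adjusted p = 0.053), and 0 of 8 members passed by edgeR, with 4 at an unadjusted p below 0.05 and 2 (Ctgf and Axl) by DESeq2. The background in RNA was 1.23% of genes.

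The control livers also differed between the days. Ordered by mean, Ctgf footprints were 4.52 ± 0.91 CPM (SD, n = 3) in day 9 controls, 6.62 ± 1.27 (n = 2) in day 13 Eif3m livers, 10.2 ± 2.13 (n = 2) in day 13 controls and 15.4 ± 3.35 (n = 3) in day 9 Eif3m livers. Only the last pair of neighbours overlapped, since the highest day 13 control exceeded the lowest day 9 Eif3m liver. Between the control groups alone, Ctgf footprints were higher at day 13 by 1.18 on the log2 scale (SE 0.32, edgeR adjusted p = 0.023), the 1 member of 7 called (5.47% of genes rose, and 10.3% were called in either direction), and the adjusted p reached 0.31 without day 13 control replicate 2. Without day 9 control replicate 1, replicate 2 or day 13 control replicate 1 it was 0.065, 0.058 and 0.071. In the same comparison of controls, 4 of 14 stellate markers rose, among them Col1a1 by 3.08 and Col3a1 by 2.26 (edgeR adjusted p of 1.2e-08 and 8e-08), as did 3 of 6 blood cell markers, all hemoglobins (list median 1.57 beside -0.02 for all genes). Blood cell markers summed to 344 to 451 CPM in footprints of day 9 controls and 257 to 420 of day 9 Eif3m livers, and to 1515 and 4703 CPM in the day 13 controls and 649 and 1123 in the day 13 Eif3m livers. Their part in the Ctgf result was not tested. The labels give no untreated group, so levels before the injections are not known.

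**Figure D1:**
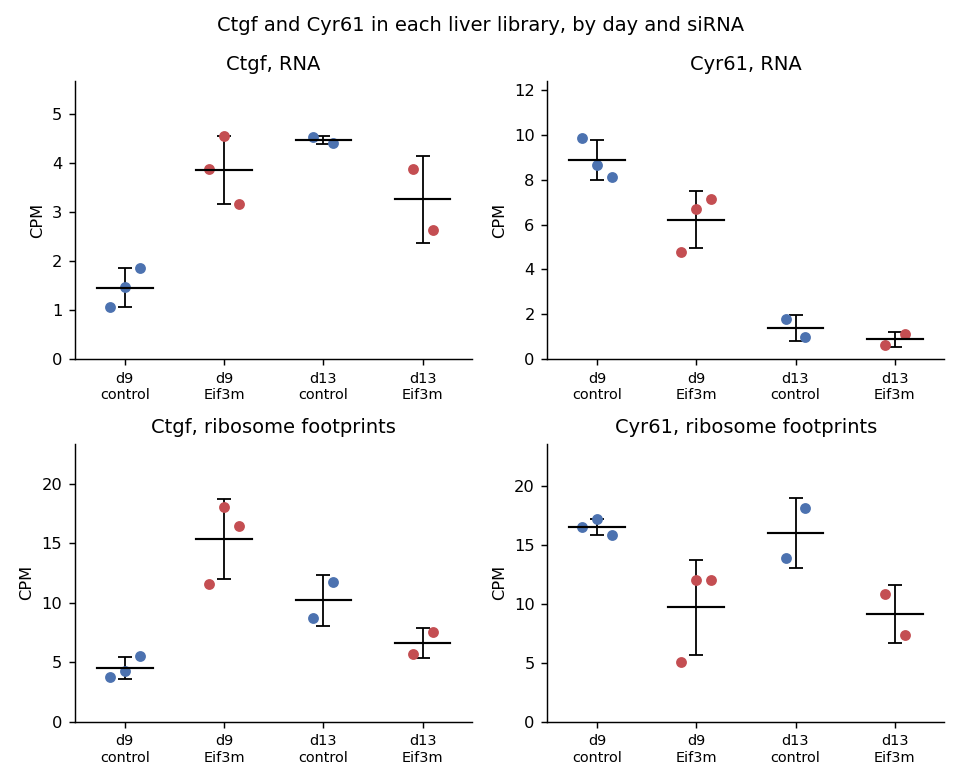
Ctgf (left) and Cyr61 (right) in each RNA library (top) and footprint library (bottom), as CPM on linear axes from 0; points are livers, horizontal lines group means and bars the SD, with 3 livers per group at day 9 and 2 at day 13. At day 9 the Eif3m livers have more Ctgf (footprints of 11.6 to 18.01 against 3.76 to 5.53 CPM) and less Cyr61 than the controls.

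Cyr61, the other CCN member of the list and a secreted matrix protein that binds integrins, moved the other way from Ctgf at day 9. Its footprints were 16.5, 17.2 and 15.8 CPM in the day 9 controls and 5.09, 12.06 and 12.003 CPM under Eif3m siRNA. All 3 Eif3m livers were below all 3 controls, and replicate 1 was the lowest by far. The log2 change was -0.74 (SE 0.23, 0.600-fold, edgeR adjusted p = 0.039), so Cyr61 fell. The call was lost without any of the 3 controls (adjusted p of 0.091, 0.12 and 0.073) and without Eif3m replicate 1, when the change was -0.46 and the adjusted p 0.081. By DESeq2 the adjusted p was 0.079 at a change of -0.74, with library totals as the only scaling it was 0.13 at -0.50, and with day 9 fitted alone 0.069 at -0.73.

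Day 13 footprints of Cyr61 were 13.9 and 18.1 CPM in the controls and 10.9 and 7.38 CPM in the Eif3m livers. Both Eif3m livers were again below both controls, with a log2 change of -0.93 (SE 0.37, 95% interval -1.70 to -0.16, edgeR adjusted p = 0.11). With day 13 fitted alone the adjusted p was 0.028 at -0.97. Over both days, the 5 Eif3m livers had 5.09 to 12.06 CPM and the 5 controls 13.9 to 18.1 CPM, so no Eif3m liver reached the lowest control. This pooling of the days was chosen after the values were seen and carries no test. Cyr61 was the 1 member of 7 with this separation over both days, in which 5.55% of all tested genes had the Eif3m side lower and 3.73% had it higher. The difference of the siRNA effects between the days was -0.20 (SE 0.42, 95% interval -1.10 to 0.71, edgeR adjusted p = 0.91).

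Cyr61 RNA was 9.88, 8.67 and 8.14 CPM in the day 9 controls and 4.76, 6.72 and 7.16 CPM under Eif3m siRNA. The groups did not overlap, and the log2 change of -0.52 (SE 0.22, edgeR adjusted p = 0.2) did not pass. With day 9 fitted alone it did, at an adjusted p of 0.041. At day 13 its RNA was 1.81 and 0.967 CPM in the controls and 0.647 and 1.13 CPM in the Eif3m livers, with a log2 change of -0.83 (SE 0.47, edgeR adjusted p = 0.25). These RNA groups overlapped, and the 2 Eif3m values rest on 11 and 6.5 reads.

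Ctgf and Cyr61 were thus called in opposite directions at day 9 in footprints, where 2 of the 7 members tested were called against 14.7% of all genes (6.84% rose and 7.9% fell). At day 9 in RNA 1 of 8 members was called (Ctgf, rose), against 2.48% of genes that rose, 3.19% that fell and 5.67% in either direction. At day 13, 1 of 8 members was called in RNA (Axl, fell), against 9.87% that fell, 6.09% that rose and 16% in either direction. In day 13 footprints 0 of 7 passed by edgeR, 1 (Cyr61) had an unadjusted p below 0.05, 0 passed by DESeq2, and 12.4% of all genes were called (6.12% rose, 6.26% fell). The median log2 change of the tested members was -0.10 in day 9 RNA, 0.23 in day 9 footprints, -0.61 in day 13 RNA and -0.39 in day 13 footprints, beside medians over all genes of -0.00, 0.02, -0.16 and 0.02.

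**Figure D2:**
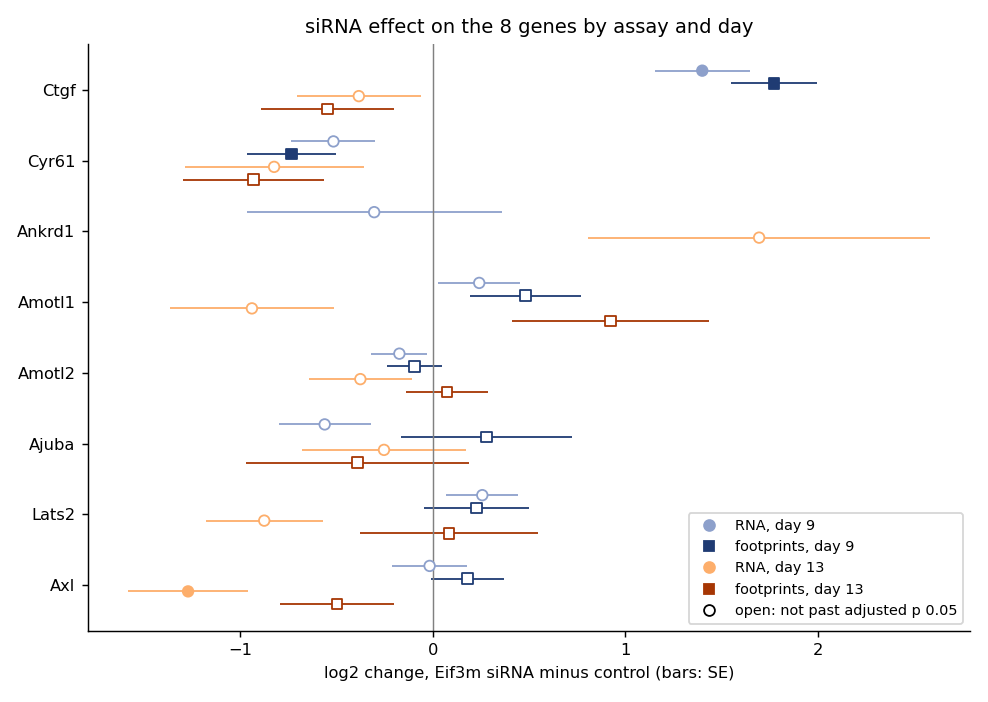
Log2 change of each gene, Eif3m siRNA minus control (horizontal axis), for RNA (circles) and footprints (squares) at day 9 (blue) and day 13 (orange); bars are the SE and filled symbols passed an adjusted p of 0.05. Filled symbols are Ctgf at day 9 in RNA (1.40) and footprints (1.77), Cyr61 in day 9 footprints (-0.74) and Axl in day 13 RNA (-1.27); Ankrd1 has no footprint point.

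Non-overlap between groups of 2 or 3 livers was common. In day 9 RNA, 2 members were higher in every Eif3m liver (Ctgf and Amotl1) and 3 lower (Cyr61, Amotl2 and Ajuba), against 18.9% and 20.3% of all genes. In day 9 footprints these were Ctgf alone and Cyr61 alone, against 15.7% and 16.3%. In day 13 RNA 1 member was higher (Ankrd1) and 5 were lower (Ctgf, Amotl1, Amotl2, Lats2 and Axl), against 18% and 29.1%. In day 13 footprints 1 was higher (Amotl1) and 3 were lower (Ctgf, Cyr61 and Ajuba), against 28.1% and 27.1%.

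Axl, a receptor tyrosine kinase of the TAM family that takes Gas6 as its ligand, fell in day 13 RNA alone among the comparisons within a day. Its RNA was 24.1, 30.7 and 28.2 CPM in the day 9 controls and 30.5, 25.6 and 26.0 CPM in the day 9 Eif3m livers. These groups overlapped fully, with a log2 change of -0.02 (SE 0.19, edgeR adjusted p = 0.98). At day 13 it was 9.99 and 5.22 CPM in the controls and 3.41 and 2.63 CPM under Eif3m siRNA. The day 13 groups were apart, although the controls differed from each other about as much as their mean did from that of the Eif3m livers. The log2 change was -1.27 (SE 0.31, edgeR adjusted p = 0.016), and the call was lost without control replicate 1 (-0.72, adjusted p = 0.074), Eif3m replicate 1 (adjusted p = 0.081) or Eif3m replicate 2 (adjusted p = 0.085), and with day 13 fitted alone (adjusted p = 0.1). In the same RNA comparison 8 of 12 sinusoidal endothelial and 8 of 12 Kupffer and macrophage markers fell, against 9.87% of all genes. In the macrophage list 1 gene, Itgam, rose. The list medians were -0.72 and -1.16, beside -0.16 for all genes. The part of these markers in the fall of Axl was not tested.

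Footprints on Axl passed the test on neither day. They were 15.05, 18.2 and 18.1 CPM in the day 9 controls and 20.3, 20.05 and 17.9 CPM in the Eif3m livers, with a log2 change of 0.18 (SE 0.19, edgeR adjusted p = 0.58). At day 13 they were 13.9 and 22.9 CPM in the controls and 18.9 and 10.4 CPM in the Eif3m livers, with overlapping groups and a log2 change of -0.50 (SE 0.30, edgeR adjusted p = 0.32). The difference of the siRNA effects between days was -1.26 in RNA (SE 0.37, edgeR adjusted p = 0.1) and -0.68 in footprints (SE 0.35, edgeR adjusted p = 0.46). Of the 5 TAM receptors and ligands, Axl included, 3 fell in day 13 RNA, against 9.87% of all genes. Besides Axl these were its ligand Gas6 by 1.70 (edgeR adjusted p = 0.0048) and the receptor Mertk by 0.64 (edgeR adjusted p = 0.034), while Pros1, the other ligand, changed by -0.16 (adjusted p = 0.58). In day 13 footprints Gas6 had a log2 change of -0.94 (adjusted p = 0.091) and Mertk of -0.63 (adjusted p = 0.06).

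The angiomotins Amotl1 and Amotl2 are junction proteins that bind YAP and hold it in the cytoplasm. Amotl1 footprints were 4.21, 2.34 and 3.74 CPM in the day 9 controls and 3.66, 4.50 and 6.00 CPM in the day 9 Eif3m livers. At day 13 they were 2.32 and 3.20 CPM with control siRNA and 6.87 and 4.65 CPM under Eif3m siRNA, from 4 and 6 reads against 12 and 33.5 reads. The day 9 groups overlapped and the day 13 groups did not. The log2 changes were 0.48 (SE 0.29) and 0.92 (SE 0.51), each with an edgeR adjusted p of 0.28. Amotl1 RNA went the other way at day 13, with 1.57 and 0.871 CPM in the controls and 0.588 and 0.752 CPM in the Eif3m livers (log2 change -0.94, SE 0.43, edgeR adjusted p = 0.15). These RNA values rest on 33 and 18.5 reads in the controls and on 10.5 and 4 reads in the Eif3m livers. At day 9 its RNA was 3.15, 3.82 and 3.30 CPM against 4.14, 3.93 and 4.10 CPM, a narrow separation with a log2 change of 0.24 (edgeR adjusted p = 0.58).

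Amotl2 stood close to its control level in footprints. They were 31.6, 40.1 and 31.7 CPM in the day 9 controls and 32.1, 31.7 and 33.1 CPM under Eif3m siRNA, then 29.0 and 24.5 CPM against 24.1 and 30.5 CPM at day 13. All 4 groups lay within 24.1 to 40.1 CPM. The log2 changes were -0.10 (SE 0.14, 95% interval -0.39 to 0.20) and 0.07 (SE 0.21, 95% interval -0.37 to 0.52). The sign at day 9 turned to 0.14 with library totals as the only scaling. Its RNA was 18.3, 19.8 and 19.2 CPM against 16.2, 16.7 and 17.8 CPM at day 9 and 2.76 and 2.03 CPM against 1.999 and 1.503 CPM at day 13, with log2 changes of -0.17 and -0.38 (edgeR adjusted p of 0.56 and 0.36). The third angiomotin, Amot, passed in neither assay on either day (log2 changes of 0.18 to 0.71).

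Lats2, the Hippo kinase that phosphorylates YAP, had RNA of 8.41, 13.7 and 11.4 CPM in the day 9 controls and 14.99, 13.2 and 11.9 CPM in the Eif3m livers. At day 13 it had 4.09 and 4.64 CPM in the controls and 2.53 and 2.07 CPM under Eif3m siRNA. The day 9 groups overlapped, and at day 13 both Eif3m livers were below both controls. The log2 changes were 0.26 (SE 0.19, edgeR adjusted p = 0.49) and -0.88 (SE 0.30, edgeR adjusted p = 0.067). Without a filter on low counts the day 13 change passed, at an adjusted p of 0.046. Lats2 footprints were 2.71, 3.72 and 3.59 CPM against 4.88, 3.34 and 3.69 CPM at day 9 and 4.06 and 3.20 CPM against 4.58 and 3.55 CPM at day 13. Those groups overlapped on both days, with log2 changes of 0.23 (SE 0.27) and 0.08 (SE 0.46).

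Ajuba, a LIM protein that binds LATS kinases, had RNA of 3.01, 3.03 and 3.67 CPM in the day 9 controls and 2.08, 2.57 and 1.91 CPM under Eif3m siRNA. Each Eif3m liver was below each control, with a log2 change of -0.56 (SE 0.24, edgeR adjusted p = 0.2) that passed with day 9 fitted alone, at an adjusted p of 0.046. At day 13 its RNA was 1.33 and 0.774 CPM against 0.941 and 0.752 CPM, a log2 change of -0.25 (SE 0.43, edgeR adjusted p = 0.73). Its footprints were 1.05, 2.34 and 2.69 CPM in the day 9 controls and 4.88, 1.31 and 1.69 CPM in the Eif3m livers. At day 13 they were 6.38 and 4.79 CPM against 4.58 and 4.10 CPM. Eif3m replicate 1 was the high one at day 9, and without it the log2 change of 0.28 became -0.44. Between the control groups, Ajuba footprints were higher at day 13 by 1.44 (SE 0.56, edgeR adjusted p = 0.11).

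Ankrd1, a cardiac and muscle ankyrin repeat protein, was hardly detected in these livers. Its RNA was 0.210, 0.257 and 0.092 CPM against 0.097, 0.151 and 0.209 CPM at day 9 and 0.048 and 0.339 CPM against 0.470 and 0.940 CPM at day 13. The summed reads behind these groups were 19, 19, 8 and 13 after rounding to whole reads. The day 13 groups were apart with a log2 change of 1.70 (SE 0.89, edgeR adjusted p = 0.22), and the day 9 groups overlapped. Footprints on Ankrd1 numbered 2 reads in the day 9 controls, 2 in the day 9 Eif3m livers, 0 in the day 13 controls and 1 in the day 13 Eif3m livers, and it was not tested there. A count of 0 allows up to 3 reads, or 0.833 CPM over the day 13 controls, by counting error only.

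**Figure D3:**
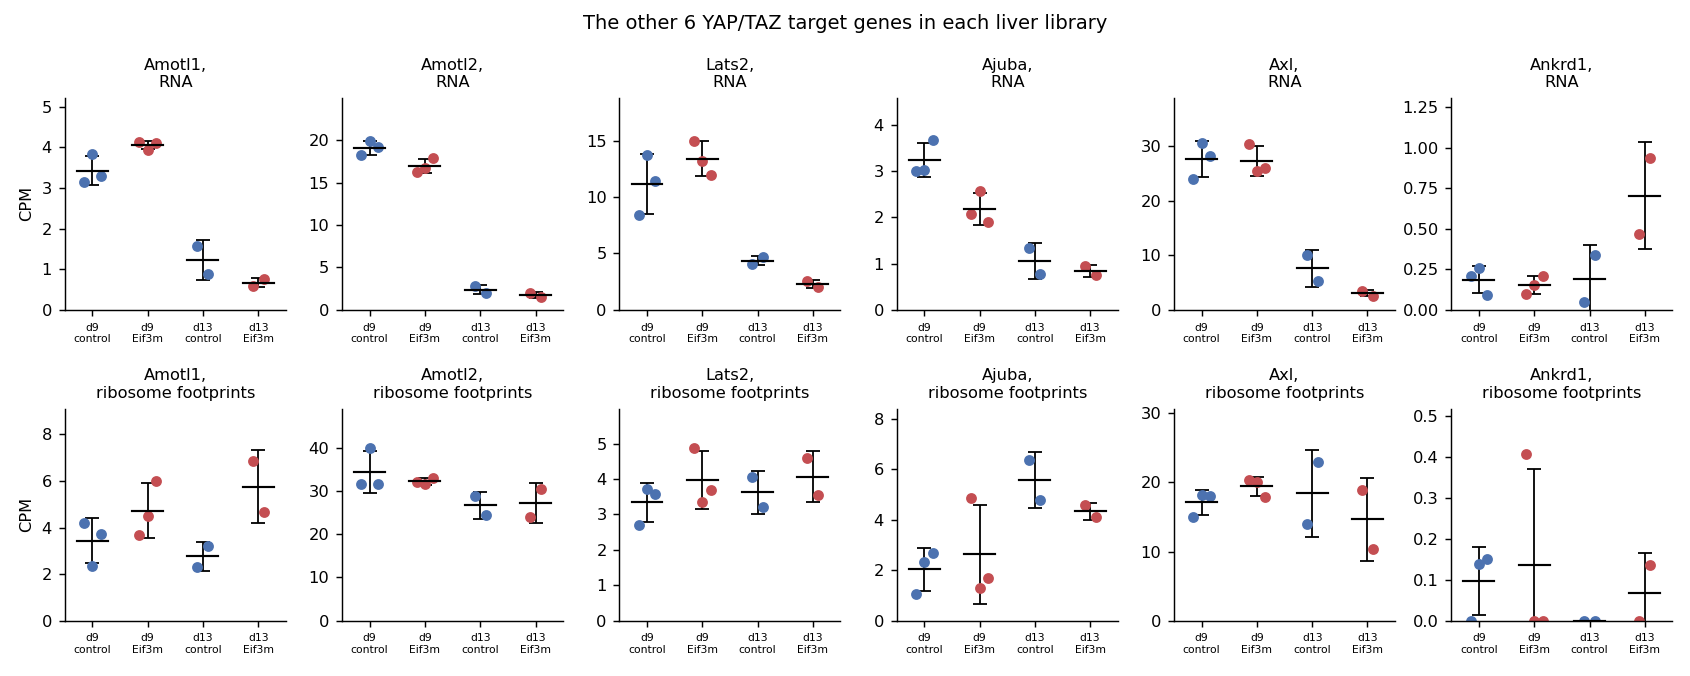
RNA (top) and footprints (bottom) of Amotl1, Amotl2, Lats2, Ajuba, Axl and Ankrd1 in each liver, as CPM on linear axes from 0; points are livers, lines group means and bars the SD. RNA of 5 of the 6 genes (all but Ankrd1) is lower at day 13 in both siRNA groups. Of their footprints, those of Amotl2 are also lower at day 13 in both siRNA groups, by 0.36 in controls and 0.24 in Eif3m livers on the log2 scale against 2.76 and 2.95 in RNA.

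Most members' RNA differed between the days, on which the kits also differed. In control livers, the log2 ratio of mean CPM (0.5 CPM added to each) of day 13 to day 9 was -2.32 for Cyr61, -2.76 for Amotl2, -1.80 for Axl, -1.27 for Ajuba, -1.26 for Lats2 and -1.19 for Amotl1. Ctgf had 1.34 and Ankrd1 0.01. In footprints, made with the same kit on both days, the ratios were -0.05 for Cyr61, -0.36 for Amotl2, 0.10 for Axl, 1.27 for Ajuba, 0.10 for Lats2, -0.27 for Amotl1 and 1.09 for Ctgf. So in control livers Ctgf was higher at day 13 in both assays. The RNA of 6 members was lower at day 13 there, and the footprints of those 6 ran from -0.36 to 1.27. In Eif3m livers the Ctgf ratio was -0.21 in RNA and -1.15 in footprints. Over 14236 genes in control livers the SD of the ratio was 1.74 in RNA and 0.59 in footprints. There, 15.2% of genes in RNA and 0.344% in footprints were below -2. Kit and day cannot be told apart in RNA, and levels across days are read here from footprints only. Those footprints came from differently labelled sets of animals on each day. Control footprint libraries held 7.04 M to 7.69 M counts at day 9 and 1.97 M to 2.12 M at day 13. Sequencing runs may differ as well, so animal set, depth and day cannot be told apart in footprints either.

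**Figure D4:**
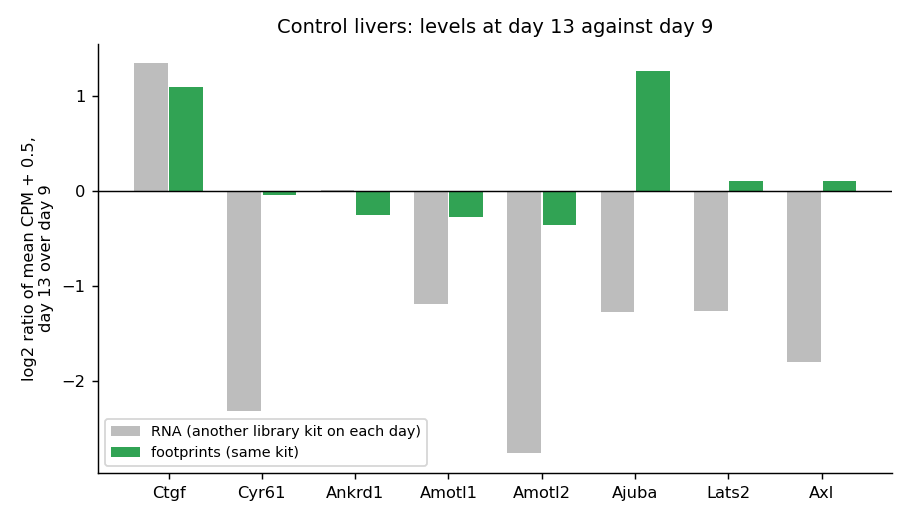
Log2 ratio of mean CPM plus 0.5, day 13 over day 9, in control livers, for RNA (grey) and footprints (green); bars start at 0. RNA of Cyr61, Amotl1, Amotl2, Ajuba, Lats2 and Axl is lower at day 13, from -1.19 to -2.76, and their footprints lie between -0.36 and 1.27.

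Translational efficiency, the footprint level over the RNA level, did not pass a test for any member. Ratios below are within an animal, while the fitted changes come from a model of groups that does not pair an animal's libraries. With the animal as a block the day 9 changes were 0.35 (SE 0.32) for Ctgf and -0.29 (SE 0.27) for Cyr61. For Ctgf the log2 ratio per animal (0.5 CPM added to both levels) was 1.46, 1.28 and 1.36 in the day 9 controls and 1.47, 1.88 and 2.21 in the day 9 Eif3m livers, then 0.87 and 1.32 against 0.51 and 1.36 at day 13. Every day 9 Eif3m liver was above every control, the lowest by 0.01. The fitted change was 0.36 at day 9 (SE 0.34, 95% interval -0.34 to 1.06) and -0.25 at day 13 (SE 0.48, 95% interval -1.23 to 0.74), with edgeR adjusted p of 1 and 0.95. So the day 9 rise of Ctgf footprints (1.77) stood beside an RNA rise of 1.40, and the part of it beyond RNA was within the error. For Cyr61 the ratios were 0.72, 0.95 and 0.92 in the day 9 controls and 0.09, 0.80 and 0.71 in the Eif3m livers, with a fitted change of -0.24 (SE 0.34, 95% interval -0.94 to 0.47, edgeR adjusted p = 1). At day 13 its fitted change was -0.16 (SE 0.67, edgeR adjusted p = 1).

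Of the 7 members tested for efficiency, 0 passed by edgeR at day 9 or day 13 or in the difference between days, with 0, 1 and 1 at an unadjusted p below 0.05 and 0 by DESeq2 each time. Over all 14236 genes 0%, 0.0211% and 0% passed, that is 0, 3 and 0 genes, with 692, 1425 and 765 at an unadjusted p below 0.05 and 4, 32 and 4 by DESeq2. With the animal as a block, which the labels support since both libraries of an animal carry its name, 8, 12 and 5 genes passed and no member did. The member with the largest fitted efficiency change was Amotl1 at day 13, at 1.81 (SE 0.67, unadjusted p = 0.0123, edgeR adjusted p = 0.36), whose footprint and RNA estimates had opposite signs. It rests on few reads, with 10.5 and 4 RNA reads in the Eif3m livers and 4 and 6 footprint reads in the controls.

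Other genes known as YAP and TAZ targets were counted from a list of 18. In day 9 RNA 2 of 15 tested rose (2.48% of all genes), Gadd45a by 1.19 (edgeR adjusted p = 0.0014) and Myof by 0.76 (edgeR adjusted p = 0.013), with a list median of 0.09 beside -0.00 for all genes. In day 9 footprints 4 of 12 rose (6.84% of all genes), Gadd45a by 1.84, Myof by 1.12, Ccdc80 by 0.69 and Igfbp3 by 0.64 (edgeR adjusted p of 1.3e-05, 0.0054, 0.0072 and 0.0082), and the list's median was 0.29 beside 0.02 for all genes. In day 13 footprints 2 of 12 rose (6.12% of all genes), Gadd45a by 4.15 and Nuak2 by 0.94 (edgeR adjusted p of 6.9e-07 and 0.032), with a median of -0.02 beside 0.02. In day 13 RNA 1 of 15 rose and 1 fell (6.09% and 9.87% of all genes), and the median was -0.48 beside -0.16. Gadd45a rose there by 3.67 (edgeR adjusted p = 1.2e-05) and Ccdc80 fell by 0.66 (edgeR adjusted p = 0.046). Gadd45a, which rose on both days in both assays, is also a target of p53 and of stress responses. Myof, a membrane repair protein, had day 9 footprints of 3.74 to 4.83 CPM in controls and 8.14 to 9.73 CPM under Eif3m siRNA.

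Among the Hippo pathway genes upstream of these targets, Yap1 had log2 changes of 0.06 and 0.16 at day 9 and -0.32 and -0.00 at day 13 in RNA and footprints, and Wwtr1, which encodes TAZ, of -0.13, -0.22, -0.14 and -0.33, with adjusted p from 0.35 to 0.99. In the list of 28 Hippo kinases, scaffolds and TEAD factors, all tested in RNA, 1 rose in day 9 RNA (2.48% of all genes), the kinase Lats1 by 0.65 (edgeR adjusted p = 0.027). In footprints, with 25 of the 28 tested, 1 rose on each day (6.84% and 6.12% of all genes) and 1 fell at day 13 (6.26%). The cadherin Fat1 rose by 0.58 at day 9 and by 0.99 at day 13 (edgeR adjusted p of 0.017 and 0.0061), and Vgll4, a TEAD co-repressor, fell by 1.03 at day 13 (adjusted p = 0.014). In day 13 RNA 2 of 28 fell (9.87% of all genes), Vgll4 by 1.19 and Frmd6 by 2.10 (edgeR adjusted p of 0.026 and 0.0052). Among the other 4 CCN genes only Wisp3 was tested, in RNA (edgeR adjusted p = 0.024 at day 13). It had 0 reads in the day 13 controls and 6 in the day 13 Eif3m livers. With 3 reads set as the control floor and the 6 reads taken without error, the ratio was 3.74-fold, which is not a lower bound. Its day 13 footprints were 0 reads in controls and 1 in Eif3m livers.

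Ctgf and Cyr61 also respond to other regulators, and genes of 2 of these were counted. Of the TGF-beta targets, 2 of 8 tested rose in day 9 footprints (6.84% of all genes) and 1 of 9 in day 9 RNA (2.48%). In footprints these were the SMAD inhibitor Skil by 1.00 (edgeR adjusted p = 0.0032) and the matrix protein Tgfbi by 0.45 (edgeR adjusted p = 0.015). In RNA it was Skil by 1.30 (edgeR adjusted p = 0.014). At day 13, 4 of 9 fell in RNA (9.87% of all genes). They were Tgfb1 by 1.18, Tgfbi by 1.46, Smad7 by 1.37 and Bhlhe40 by 0.92 (edgeR adjusted p of 0.013 to 0.028). In day 13 footprints 1 of 8 fell (6.26% of all genes), Bhlhe40 by 0.71. The SRF and MRTF targets are genes of the actin cytoskeleton. Of 15 tested in day 9 footprints, 1 rose (Flna by 0.57) and 1 fell (Vcl by 0.37), against 6.84% and 7.9% of all genes. At day 13, 1 of 15 fell in footprints and 1 of 16 in RNA, against 6.26% and 9.87% of all genes. Both times this was Zyx, by 0.79 in footprints and 1.10 in RNA.

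The genes whose pattern over the 10 footprint libraries was most like that of Ctgf were Lyz2, Ccr3, Rasgef1b, Lyz1 and Ucp2, with Pearson r on log2(CPM + 0.5) of 0.938, 0.932, 0.926, 0.890 and 0.887, out of 8719 genes. Lyz1 and Lyz2 are near-identical lysozyme genes and can share reads. Lyz2, a macrophage lysozyme, had footprints of 26.4 ± 4.24 CPM (SD, n = 3) in day 9 controls, 77.5 ± 9.03 (n = 3) in day 9 Eif3m livers, 72.5 ± 0.058 (n = 2) in day 13 controls and 44.0 ± 0.73 (n = 2) in day 13 Eif3m livers. Cyr61 ranked 6855 of 8719 in likeness to Ctgf, with r = -0.326 over the 10 libraries. With the group means removed, r between the same genes was 0.521. The genes most like Cyr61 were Atp6v1h, Ugp2, LOC105247429, Lect2 and Degs1, with r from 0.928 to 0.979. These correlations describe 10 libraries in 4 groups, and the points share their groups and depths.

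Markers of stellate cells, the liver's matrix-producing pericytes, were in part called in the same direction as Ctgf at day 9, the collagens among them, while most did not pass on either day. The 14 genes summed in footprints to 849 to 883 CPM in day 9 controls, 1009 to 1089 in day 9 Eif3m livers, 1267 to 1331 in day 13 controls and 871 to 1062 in day 13 Eif3m livers, and none was at 0 in any group. In day 9 footprints 4 of 14 rose (6.84% of all genes), the collagens Col1a1 by 1.37 and Col3a1 by 1.15, Vim by 1.11 and Pdgfrb by 0.59, with a list median of 0.28 beside 0.02 for all genes. At day 13, 3 of 14 fell (6.26% of all genes), Col1a1 by 2.07, Col3a1 by 1.13 and Ecm1 by 0.67, with a median of -0.22 beside 0.02. The difference of the siRNA effects between days was -3.44 for Col1a1 (edgeR adjusted p = 1.4e-06) and -2.28 for Col3a1 (edgeR adjusted p = 3.6e-05), beside -2.32 for Ctgf. Lrat and Reln, picked after their values were seen, were among the stellate markers that passed on neither day. Day 9 footprints of Lrat were 12.8 to 24.7 CPM in controls and 12.2 to 22.5 CPM in Eif3m livers. For Reln these were 153 to 172 CPM and 171 to 205 CPM. The part of the collagen genes and of stellate cells in the Ctgf result was not tested.

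**Figure D5:**
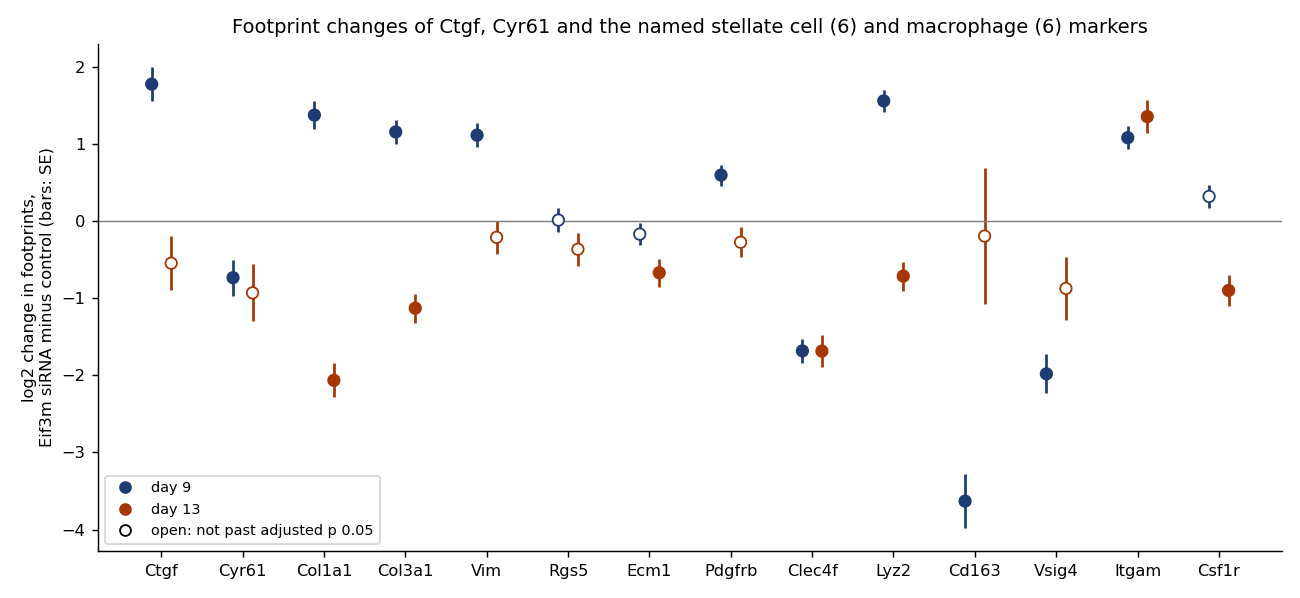
Footprint log2 change, Eif3m siRNA minus control (vertical axis), at day 9 (blue) and day 13 (orange) for Ctgf, Cyr61, and the 6 stellate cell and 6 Kupffer and macrophage markers that have the smallest p among those called in RNA or footprints on either day; bars are the SE, filled symbols passed an adjusted p of 0.05. Ctgf (1.77, then -0.55) lies beside Col1a1 (1.37, then -2.07), Col3a1 (1.15, then -1.13) and Lyz2 (1.55, then -0.72). Clec4f (-1.68, then -1.69) is below 0 on both days, as is Cyr61, and Itgam (1.08, then 1.35) is above 0 on both.

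Among markers of other liver cells, those of Kupffer cells and macrophages were called in both directions in day 9 footprints. In day 13 RNA the medians of the lists given below were negative, as was that of the members (-0.61). The 12 Kupffer and macrophage markers summed to 489 to 585 CPM in footprints of day 9 controls and 519 to 577 of day 9 Eif3m livers, and to 496 to 550 against 312 to 367 at day 13. Within that list 3 of 12 rose and 3 fell in day 9 footprints, against 6.84% and 7.9% of all genes. Lyz2 and Itgam were among those that rose, by 1.55 and 1.08, and Clec4f, Vsig4 and Cd163 fell by 1.68, 1.98 and 3.63. The 12 sinusoidal endothelial markers had 8 members that fell in day 13 RNA, when their sum was 351 to 365 CPM in controls and 224 to 244 CPM in Eif3m livers, beside footprint sums of 910 to 917 and 858 to 928 CPM. In the same day 13 RNA, 8 of 12 Kupffer and macrophage markers fell and 1, Itgam, rose (sums of 331 to 357 CPM in controls and 138 to 146 CPM in Eif3m livers), and so fell 5 of 14 stellate markers (674 to 768 against 441 to 487 CPM) and 3 of 8 blood cell markers (275 and 896 against 123 and 124 CPM). The list medians were -0.72 for endothelial, -1.16 for macrophage, -0.61 for stellate and -1.36 for blood cell markers, beside -0.16 for all genes, of which 9.87% fell.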

How the data were processed

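RNA-seq and ribosome profiling of 10 mouse livers gave 20 libraries. The authors deposited 1 table of expected counts per gene symbol (44.3% of its values above 0 have a fraction), and per the submitters' processing notes cutadapt, Bowtie and Bowtie2 were used. Tool versions and roles, genome build, counting rule and any use of strand: not given in the sources used here.

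Expected counts were rounded to whole numbers for the tests. Samples were grouped by assay, day and siRNA from the labels, and replicates are different animals. Each assay had its own fit of 4 groups by edgeR 4.0.16 (with limma 3.58.1, R 4.3.3): genes kept by filterByExpr, scaled by TMM, then tested by quasi-likelihood F with the robust option. Efficiency used 1 model of 8 groups. Tests were two-sided and Benjamini-Hochberg adjusted over all genes tested, with calls at 0.05. An SE is the log2 change divided by the square root of F, and 95% intervals use the model's t quantiles. CPM is the count over the library total times its TMM factor. "Rose" and "fell" mean called. PCR duplicates cannot be recognised, so floors cover counting error only.

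The members and the 15 gene lists were chosen with earlier results of these data known. Named genes are the 8 members, up to 6 called genes a list by smallest p, the 5 genes most alike to Ctgf and to Cyr61 over footprint libraries (mean of at least 5 CPM), and Eif3m. Genes named outside it, such as Yap1, Wwtr1, Amot, Pros1, Lrat and Reln, were chosen after their values were seen. The fits were also run on simulated counts with a fixed spread and added changes in well-counted genes only. That run is no support for genes with few reads. Promoter windows and gene positions are from RefSeq, build GRCm38.p6.

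Replicates of a group had Pearson r of 0.964 to 0.996 over 16 pairs and a chi-square per gene of 3.62 to 88.3, so none is a repeat of another. Alternatives were other scalings, filters, DESeq2 1.42.0, each day alone, a replicate or animal block and each library left out.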

Additional observations from a re-analysis of the deposited data

Results flagged for a closer look

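The siRNA effect on Ctgf footprints differed between the 2 days by a test of the difference itself. It was 1.77 on the log2 scale at day 9, higher in 3 of 3 Eif3m livers than in any control, and -0.55 at day 13, lower in 2 of 2, so that day 13 minus day 9 was -2.32 (SE 0.42, edgeR adjusted p = 0.01). Over the alternatives that left out 1 library the difference ran from -2.60 to -2.08, and the adjusted p from 0.0017 to 0.14.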

How the results depend on the processing

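Settings were changed one at a time. The day 9 rise of Ctgf kept its call in both assays under every alternative that tested it; with a mean of at least 5 CPM required its RNA was not tested, so 0 members were called in day 9 RNA instead of 1. With no filter beyond 1 count, calls were 1583 genes in day 9 RNA (932 as reported), 1034 for the RNA difference between days (202), 242 for the footprint difference (100) and 18, 145 and 7 for efficiency at day 9, day 13 and their difference (0, 3 and 0), and 2 members each were called in day 13 RNA and in the RNA difference. DESeq2 gave 1636 genes in day 9 RNA, 752 genes and 2 members for the RNA difference, 1 member in day 9 footprints, and 4, 32 and 4 efficiency genes. A day fitted alone gave 3445 genes and 3 members in day 9 RNA, 969 genes and 0 members in day 13 RNA (DESeq2 over both days called 1 member, and 3 had an unadjusted p below 0.05 in edgeR), 1 member each in day 9 and day 13 footprints, and 4 and 1 efficiency genes at day 9 and day 13.

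Library totals without TMM moved every gene up by 0.14, 0.22, 0.23 and 0.32 on the log2 scale in day 9 RNA, day 13 RNA, day 9 footprints and day 13 footprints. Calls in footprints became 2753 at day 9 (2302 rose, 451 fell, against 835 and 965) with 1 member, and 2358 at day 13 (2007 rose, 351 fell, against 748 and 765). In RNA they were 881 rose and 363 fell at day 9 (407 and 525) and 1504 rose and 1014 fell at day 13 (1002 and 1623); between the control days in footprints 521 rose and 818 fell (668 and 596). Day 13 efficiency had 63 genes, 5 with DESeq2 size factors and 6 with the 5 CPM filter. Signs turned for Axl in day 9 RNA (0.12, and 0.0066 with the 5 CPM filter), Amotl2 in day 9 footprints (0.14) and Cyr61 in day 13 efficiency (0.077), each within its SE of 0 by TMM. The cause was not tested.

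Replicate numbers did not pair the siRNA groups: deviations of same-numbered libraries correlated at -0.098, -0.11 and 0.22 in day 9 RNA, -0.079, -0.036 and 0.037 in day 9 footprints, -0.058 in day 13 RNA and 0.042 in day 13 footprints. With the replicate block 61 genes were called for the RNA difference and 62 for the footprint difference; for efficiency, where the block is the animal, 8, 12 and 5. The block changed no call of a member in the comparisons it was run for, which leave out the control groups between days, where the animals differ; Ctgf in day 9 RNA and footprints had adjusted p of 0.022 and 8.8e-05.

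Leaving out 1 library gave 292 to 2366 genes and 1 member in day 9 RNA, 1336 to 4265 and 0 to 2 in day 13 RNA, 0 to 2065 and 0 to 3 for their difference, 1129 to 2179 and 1 to 2 in day 9 footprints, 429 to 1875 and 0 to 1 in day 13 footprints, 7 to 172 and 0 to 1 for their difference, and 322 to 1654 and 0 to 2 between control days. Efficiency ranged over 0 to 5, 0 to 438 and 0 to 59 genes. Signs turned within these ranges for Axl (-0.12 to 0.070) and Ankrd1 (-0.62 to 0.033) in day 9 RNA, Ajuba in day 13 RNA (-0.60 to 0.19), Cyr61 in the RNA difference (-0.72 to 0.21), Ajuba (-0.44 to 0.64) and Amotl2 (-0.15 to 0.029) in day 9 footprints, Lats2 (-0.083 to 0.35), Amotl2 (-0.14 to 0.20) and Axl (-0.82 to 0.036) in day 13 footprints, Cyr61 in the footprint difference (-0.49 to 0.18), and Ctgf (-0.66 to 0.30) and Cyr61 (-0.83 to 0.51) in day 13 efficiency. None of these was called. Day 13 footprints hold 1.64 M to 6.52 M counts, so 1 CPM is 1.72 to 7.32 reads there.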

Other observations

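Within the 10 footprint libraries the 8 genes did not form 1 pattern. The pairwise Pearson r on log2(CPM + 0.5) was 0.646 for Ajuba with Lats2, -0.631 for Cyr61 with Lats2, -0.326 for Ctgf with Cyr61 and 0.319 for Ctgf with Axl. With the group means removed these were 0.895, -0.495, 0.521 and 0.036, so Ctgf with Cyr61 changed sign. These are descriptions over 10 livers in 4 groups that share depth.

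Summed over the 8 members, RNA was 68.1 to 81.5 CPM in day 9 controls and 72.3 to 76.6 CPM in day 9 Eif3m livers, and 19.2 to 26.1 CPM against 12.4 to 14.5 CPM at day 13. Their summed footprints were 74.9 to 88.4 CPM against 83.0 to 90.9 CPM at day 9 and 78.3 to 88.4 CPM against 68.2 to 75.6 CPM at day 13. Axl and Amotl2 weigh most in the RNA sum, with day 9 control means of 27.7 and 19.1 CPM beside 1.45 CPM for Ctgf. Of all single genes at day 13, 29.1% in RNA and 27.1% in footprints were lower under Eif3m siRNA without overlap.

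Members that passed a test in no comparison within a day (Amotl1, Amotl2, Lats2, Ajuba and Ankrd1) include genes with wide intervals. For Amotl1 footprints at day 13 the 95% interval of the log2 change was -0.15 to 1.99, and for Ajuba it was -1.61 to 0.83.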
